A study of Mus musculus with 4 samples.

Results

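The cells described here are the 439 luminal progenitors with the highest combined level of Elf5, Plet1, Rhov and Car2, out of 4382 luminal progenitors and 18223 cell barcodes in all. A cell with at least 1000 UMIs (unique molecular identifiers, 1 per captured transcript) was a luminal progenitor if it held at least 5 UMIs of Krt8, Krt18 and Krt19 together, more than 3 times its UMIs of the basal genes Krt5, Krt14, Krt17 and Acta2, at least 3 UMIs of Wfdc18, Csn3 and Ltf, and more of these than of Ly6d, Fxyd2 and Gpx3. The top 10% by the 4 genes' UMIs per 10000 UMIs, taken over all libraries together, are called score-high progenitors, and the remaining 3943 the other progenitors. The cells came from the epithelium of the fourth mammary glands of 4 FVB mice at postnatal week 9, each mouse giving 1 droplet 3′ RNA library. All 4 mice, controls included, carried the genotype Tfap2cfl/fl / Krt5-CreERT2, in which both copies of Tfap2c, the gene of the transcription factor AP-2γ, are floxed and a tamoxifen-inducible Cre is driven by the Krt5 promoter of basal cells. That is the genotype of the sample labels; the series' design text names Krt5-Cre, without the inducible form. From week 4, 2 mice received corn oil, the vehicle, and 2 received 4-hydroxytamoxifen (4OHT). The sample labels give 5 days of injections and the treatment protocol 1 week. The series asked about the role of Tfap2c in mammary stem cells. Cre is made in basal cells, so a luminal cell can carry the deletion only if it, or a cell it descends from, used that promoter.

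Luminal progenitors line the mammary ducts and give rise to the milk-secreting alveolar cells of pregnancy. Elf5 is an ETS-family transcription factor that marks luminal progenitors and is needed for alveolar development, downstream of prolactin. Plet1 is a surface glycoprotein that marks progenitor cells in several epithelia, and Car2 is carbonic anhydrase II, which hydrates carbon dioxide.

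The libraries held 17351950 to 22017878 UMIs and 934 to 1236 luminal progenitors each. Any 2 libraries shared between 18 and 36 cell barcodes, and no barcode belonged to score-high progenitors of 2 libraries. Tfap2c was at 389, 285, 285 and 325 CPM in cells gated as basal, in the order corn oil 1, corn oil 2, 4OHT 1 and 4OHT 2, so its counts did not separate the treatments. Reads from the 3′ end need not cover the deleted exons, which are not given in the sources used here, so these counts check nothing. Groups are therefore named by label, as corn oil-labelled or 4OHT-labelled libraries. Doublets were not removed. The cells with the highest doublet scores made up 1.12 to 4.88% of the score-high and 2.51 to 4.36% of the other progenitors per library.

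The score was first described by the values that chose the cells, without a test. The lowest score of a chosen cell was 41.74 UMIs per 10000 and the highest of a cell not chosen 41.73. Within 10% of that cut lay 40 chosen and 81 other cells, so the score-high cells are the upper end of a range. The median score was 66.7 in score-high and 6.59 in the other progenitors, of which 558 (14.2%) had none of the 4 transcripts. Of the score UMIs in chosen cells, 87.2% were Plet1, 6.43% Rhov, 4.36% Elf5 and 2.0% Car2. The score was therefore mostly a Plet1 score. Every chosen cell had a Plet1 UMI, and 50 cells (11.4%) had all 4 transcripts. A score of the other 3 genes shared 157 cells (35.8%) with the chosen set, against 399 (90.9%) for Plet1 alone, an added definition.

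Counts were summed over the cells of a class in each library and divided by the total of that sum to give CPM. Plet1 (ENSMUSG00000032068, chromosome 9 from 50494525 to 50505482, plus strand, GRCm38) was at 6953 and 6849 CPM in the corn oil-labelled and 7401 and 8108 CPM in the 4OHT-labelled libraries in score-high progenitors, and at 644, 464, 549 and 772 CPM in the others, in the same order. Elf5 (ENSMUSG00000027186, chromosome 2 from 103411688 to 103450989, plus strand) was at 451, 283, 325 and 327 CPM against 174, 125, 139 and 152 CPM. All 4 score-high sums of both genes lay above all 4 sums of the others. These genes chose the cells, so their levels are a description. Rhov (ENSMUSG00000034226, chromosome 2 from 119269201 to 119271272, minus strand) was at 643, 377, 485 and 516 CPM against 174, 126, 122 and 193 CPM. Car2 (ENSMUSG00000027562, chromosome 3 from 14886273 to 14900770, plus strand) was at 155, 272, 101 and 194 CPM against 35.7, 37.3, 26.3 and 42.4 CPM. Car2 was the rarest of the 4 and rested on 34 UMIs in 4OHT replicate 1.

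Because cells were chosen by these UMIs, the levels were read again on UMIs that took no part in the choice. Each cell's UMIs were split at random into 2 parts, cells were chosen on the first and read in the second. Plet1 was then higher in the chosen cells by 3.46 ± 0.25 on the log2(CPM + 1) scale (mean ± SD over the 4 libraries), against 3.61 ± 0.24 with the same UMIs. Rhov gave 1.63 ± 0.24 against 1.71 ± 0.26, Elf5 1.24 ± 0.13 against 1.21 ± 0.12, and Car2 1.97 ± 0.46 against 2.25 ± 0.40. Most of the elevation was thus present in UMIs that had not chosen the cell. Each gene was also read in cells chosen by the other 3. On the same scale Plet1 was then higher by 1.56 ± 0.23, Car2 by 1.46 ± 0.48, Rhov by 1.40 ± 0.22 and Elf5 by 1.04 ± 0.17, with each of the 4 libraries above 0 for each gene. The 4 genes were put together with results of these data known, so this is a description and carries no test.

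**Figure D1:**
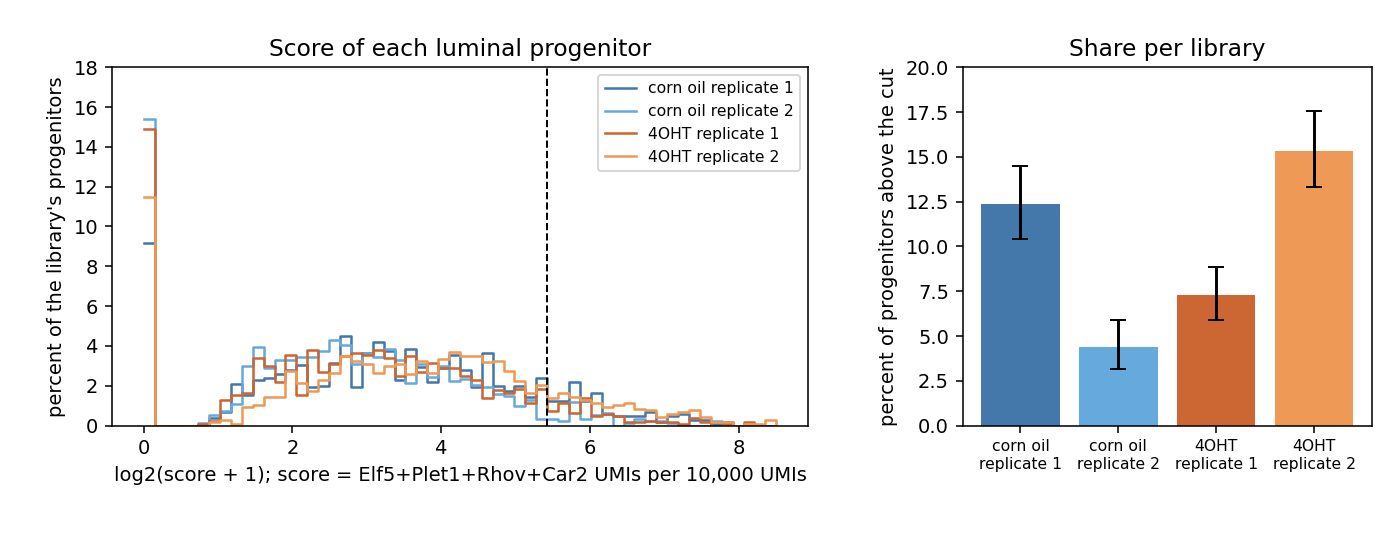
Left, the distribution of log2(score + 1) over the luminal progenitors of each library, with the cut for the top 10% as a dashed line; right, the percent of each library's progenitors above the cut, with exact 95% binomial intervals. The scores run through the cut without a gap, and the share ranges from 4.39% in corn oil replicate 2 to 15.3% in 4OHT replicate 2.

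Elsewhere in the tissue the 4 genes differed in how widely they were found. Elf5 was at 1.76 to 11.6 CPM in cells gated as hormone-sensing luminal and 1.22 to 2.43 CPM in basal cells, and Car2 at 0 to 0.787 CPM and 0.505 to 1.97 CPM. Rhov was at 40.6 to 85.8 CPM in hormone-sensing and 2.45 to 6.83 CPM in basal cells. Plet1 was at 114 to 175 CPM in hormone-sensing and 147 to 301 CPM in basal cells, and its lowest value in each class lay above the highest of any other score gene there. With every cell thinned to 2000 UMIs, 21.2% of basal and 21.0% of hormone-sensing cells had a Plet1 UMI, against 1.52% of endothelial cells, taken as a type that should lack it (27.6%, 42.6% and 2.95% without thinning, at median depths of 3456, 5594 and 2141 UMIs). Elf5 UMIs were found in 41.7% of score-high and 21.1% of other progenitors after thinning (59.7% and 36.6% before), against 0.758% of endothelial cells. Thinning left out 46 score-high and 170 other progenitors and 707 basal, 19 hormone-sensing and 105 endothelial cells.

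**Figure D2:**
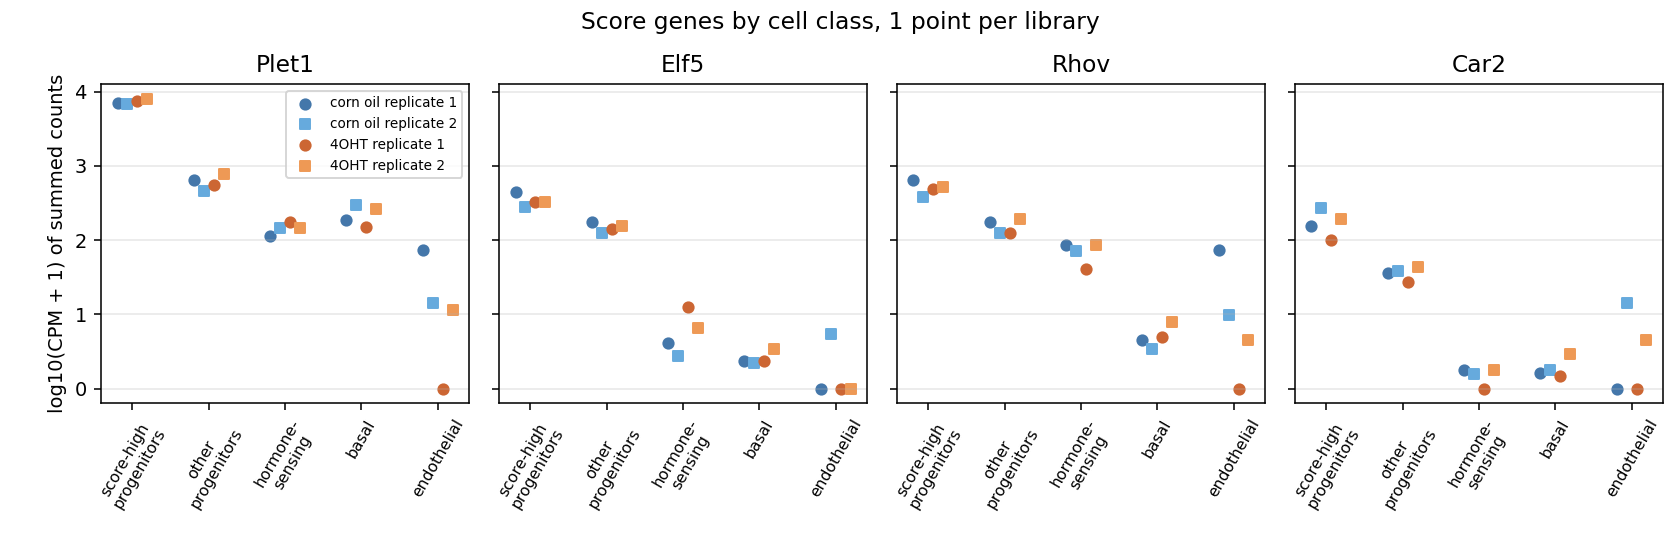
Level of each score gene, as log10(CPM + 1) of summed counts, in score-high progenitors, other progenitors, hormone-sensing luminal, basal and endothelial cells, with 1 point per library. Elf5 stays at or below 11.6 CPM in hormone-sensing and basal cells, while Plet1 keeps 147 to 301 CPM in basal cells.

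Elf5 belongs to the ETS family, whose sites share the core GGAA, so the promoters of the genes that chose the cells are shown with that core in capitals (GGAA, or TTCC where it lies on the other strand). The RefSeq windows run from 250 bases before to 50 after each start on GRCm38.p6 and are written 5′ to 3′ on the gene's strand. Elf5 has 2 listed starts, at chr2:103411848-103412147 and chr2:103423818-103424117, both on the plus strand. Plet1 lies at chr9:50494275-50494574 on the plus and Rhov at chr2:119271177-119271476 on the minus strand. 3 of the 4 score genes matched the table, and Car2 is named only.
Elf5, first start: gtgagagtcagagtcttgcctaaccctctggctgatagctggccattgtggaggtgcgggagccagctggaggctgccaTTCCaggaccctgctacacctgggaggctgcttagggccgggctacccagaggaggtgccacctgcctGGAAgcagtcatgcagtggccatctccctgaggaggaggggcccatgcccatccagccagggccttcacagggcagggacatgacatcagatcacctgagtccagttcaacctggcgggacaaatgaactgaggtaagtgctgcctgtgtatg
Elf5, second start: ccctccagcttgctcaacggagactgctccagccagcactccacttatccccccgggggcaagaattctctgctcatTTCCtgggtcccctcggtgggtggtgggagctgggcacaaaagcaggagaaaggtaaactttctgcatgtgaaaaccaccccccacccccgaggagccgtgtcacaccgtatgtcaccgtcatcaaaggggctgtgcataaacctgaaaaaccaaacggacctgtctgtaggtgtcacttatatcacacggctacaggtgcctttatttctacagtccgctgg
Plet1: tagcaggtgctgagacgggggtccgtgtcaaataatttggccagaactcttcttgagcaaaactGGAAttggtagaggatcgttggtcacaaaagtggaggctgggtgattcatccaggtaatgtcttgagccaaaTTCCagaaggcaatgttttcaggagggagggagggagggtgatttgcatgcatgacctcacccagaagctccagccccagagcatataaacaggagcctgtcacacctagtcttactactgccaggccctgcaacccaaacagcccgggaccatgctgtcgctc
Rhov: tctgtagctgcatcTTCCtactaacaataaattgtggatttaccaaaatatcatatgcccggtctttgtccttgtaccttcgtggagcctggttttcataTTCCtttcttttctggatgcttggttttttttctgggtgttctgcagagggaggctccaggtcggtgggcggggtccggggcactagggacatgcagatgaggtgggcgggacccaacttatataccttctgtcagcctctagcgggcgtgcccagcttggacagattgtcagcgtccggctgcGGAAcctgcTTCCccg
The core was found 2 times and 1 time in the Elf5 windows, 2 times in that of Plet1 and 4 times in that of Rhov, over both strands. Of all 32851 windows of this length, 96.0% held at least 1 match, 84.6% at least as many as Plet1 and 46.3% at least as many as Rhov. The median was 3, so the Elf5 and Plet1 windows lay below it and that of Rhov above. A match is a description of the letters and not a binding site.

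Score-high and other progenitors of the same library were then compared gene by gene, for genes outside the rule. Lmna, Ifrd1, Lypd3 and the AP-1 gene Fosl1 were among the largest rises. Rsad2, Ccl5, Ly6a, Hmox1 and several interferon response genes were among the largest falls. The edgeR quasi-likelihood test, with library as a block and Benjamini-Hochberg adjustment, was read at an adjusted p under 0.05. It called 580 of 8950 genes higher (6.48%) and 813 lower (9.08%). Counts from the gene lists below stand beside these shares. All 4 score-high sums lay above all 4 others for 350 genes (3.91%) and below them for 1128 (12.6%). Score-high sums held 180182 to 729213 UMIs and the others 4649971 to 5938919, so a scarce gene can be at 0 in score-high sums by depth alone. The part of this in the 1128 was not tested. The p-values concern differences within a mouse, over 4 mice. Their spread was moderated by edgeR over all genes, so they do not measure a gene's own spread between mice alone. The number of calls depended on the libraries, with 380 higher and 468 lower without 4OHT replicate 1, and 469 lower without corn oil replicate 1. Score-high cells were also shallower, with a median of 3807 UMIs against 4820. When cells were scored after thinning to 2000 UMIs, 28 of the 28 genes with the largest differences kept direction and call. Only the score was thinned there and not the sums tested, and the 28 were picked as the largest called differences of the same data. The part of depth in these differences was therefore not tested.

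**Figure D3:**
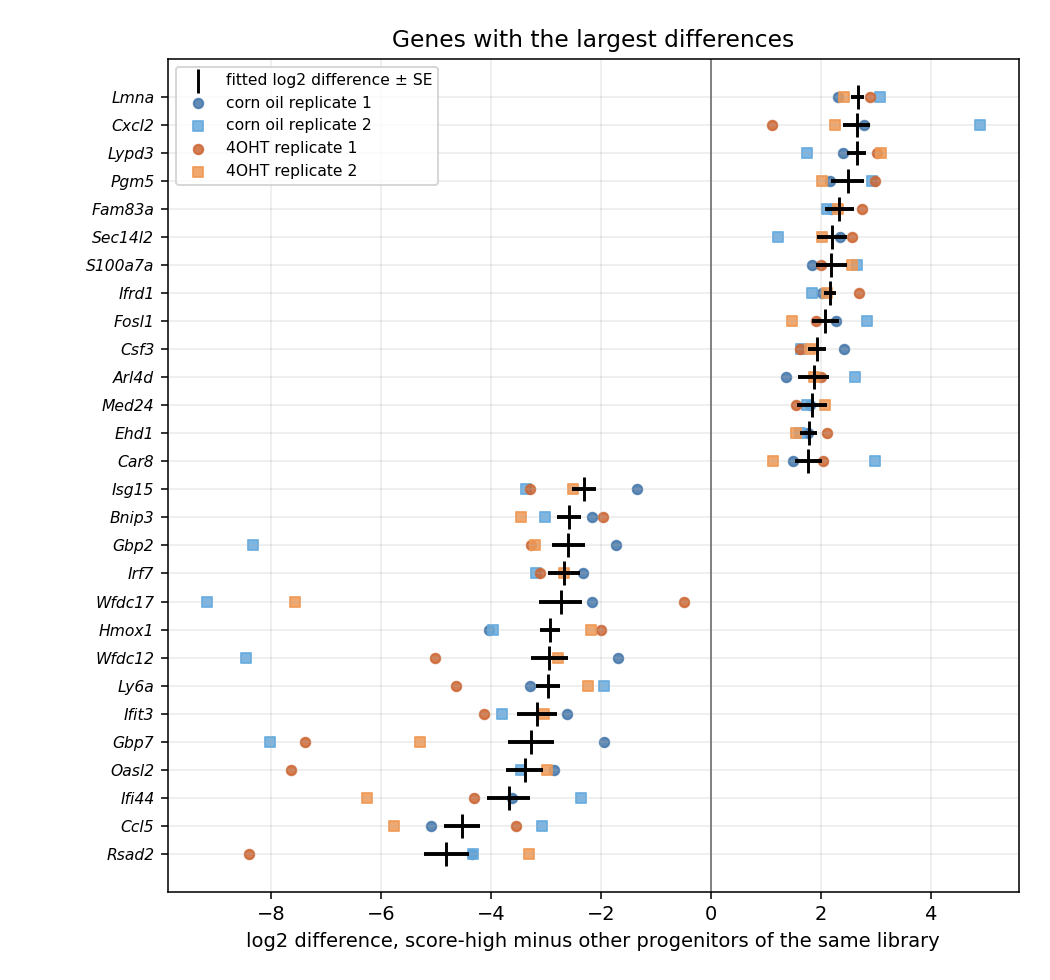
The 14 genes with the largest log2 difference in each direction, among called genes averaging 20 CPM or more with the same sign in all 4 libraries. Black marks are fitted differences with standard errors, and points are the within-library differences with a prior count of 1, which sets how far a point lies where score-high cells had no UMI; the 14 higher genes lie between 1.77 and 2.66 and the 14 lower genes between −4.82 and −2.32.

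Lmna, which encodes the nuclear lamins A and C, was at 2204 and 2303 CPM in the corn oil-labelled and 2525 and 1689 CPM in the 4OHT-labelled libraries in score-high progenitors, and at 489.9, 256, 374 and 358 CPM in the others. The lowest score-high value was over 3 times the highest of the others. The log2 difference was 2.66 ± 0.12 (SE), with an adjusted p of 1.24e-26 (edgeR). Ifrd1, a transcriptional co-regulator, was at 4082, 2226, 6163 and 5270.2 CPM against 1114, 579, 1044 and 1392 CPM, again without overlap. Its log2 difference was 2.16 ± 0.11 (SE), with an adjusted p of 1.17e-24 (edgeR). Both were found in most score-high cells, Lmna in 414 and Ifrd1 in 413 of 439.

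Lypd3, a surface protein of stratified epithelia related to the urokinase receptor, was at 176, 144, 330.5 and 225 CPM against 36.2, 39.7, 44.5 and 29.9 CPM, a log2 difference of 2.64 ± 0.17 (SE). Cxcl2, a chemokine that draws neutrophils, was at 100.1, 266, 86.3 and 139 CPM against 15.8, 8.01, 43.8 and 32.7 CPM, a log2 difference of 2.65 ± 0.25 (SE). Both had no overlap between the groups, but Cxcl2 rested on few cells. Of its score-high UMIs, 45 of 48 in corn oil replicate 2, 20 of 29 in 4OHT replicate 1 and 39 of 87 in 4OHT replicate 2 came from 1 cell of that library. Csf3, the granulocyte growth factor, came from 54 cells and was at 211, 66.6, 196 and 255 CPM against 43.4, 19.6, 70.2 and 83.0 CPM, where corn oil replicate 2 lay within the range of the others and had 10 of 12 UMIs in 1 cell. Its log2 difference of 1.92 was −1.52 when cells were chosen without Plet1. The other 9 of the 14 were Pgm5 (2.48), Fam83a (2.33), Sec14l2 (2.19), the S100 protein S100a7a (2.18), Fosl1 (2.08), the small GTPase Arl4d (1.86), the Mediator subunit Med24 (1.84), the endocytic recycling protein Ehd1 (1.77) and Car8, a carbonic anhydrase-related protein (1.77), each as a log2 difference.

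Immediate early genes, the first transcripts induced by a stimulus and by tissue dissociation, mostly rose. Of 20 tested, 12 rose and 3 fell, with a median log2 difference of 0.62 against −0.08 over all genes tested; without 4OHT replicate 1, 8 rose. The AP-1 subunit Junb was at 3420.1, 2153, 4132 and 3639 CPM against 1888, 1189.7, 1771 and 2295 CPM, and was higher within each library by a fitted 0.99 ± 0.10 (SE). Jun (1.04), Zfp36 (1.08), Atf3 (0.95) and Fosl2 (1.09) rose, while Fos (−0.73), Ier2 (−0.94) and Ier3 (−0.53) fell. The value of Fos was 1.31 with Plet1 left out of the score and 0.64 for the top 20%. The part of dissociation in these differences was not tested.

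NF-kB feedback genes and chemokines gave 10 higher and 2 lower of 21 tested, with a median of 0.57. Bcl3, a nuclear IkB protein, was at 101, 139, 71.5 and 79.7 CPM against 42.6, 37.3, 24.2 and 36.8 CPM, a log2 difference of 1.50 ± 0.19 (SE). Nfkb1 (1.05), Cxcl16 (0.69), Cxcl1 (0.74), Icam1 (1.20), Tnfaip3 (1.03) and Nfkbia (0.49), the inhibitor that NF-kB itself induces, rose as well. Ccl20 and Cxcl10, both with a mean under 20 CPM, were the lower ones, and without either corn oil library 0 were lower.

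Transcription factors of the ETS family gave 3 higher and 0 lower of 12 tested, with Elf5 left out as a score gene. Elf3, an epithelial ETS factor, was at 218, 183, 229 and 147 CPM against 92.8, 58.3, 75.9 and 52.0 CPM, without overlap, and rose by 1.57 ± 0.15 (SE). Ets1 (1.22) and Ets2 (0.96) were the other two. Among 24 epithelial transcription factors, 3 rose (12.5%) and 2 fell (8.33%), beside 6.48% and 9.08% over all genes tested. Cebpb (0.93), Cebpd (0.44) and the progenitor factor Sox10 (0.71) rose, and Tfap2a (−0.85) and the scarce Ovol1 fell. Without 4OHT replicate 1, 0 of the list fell, and without any 1 of the other libraries 1 did. Cebpb was at 3703, 899, 1629 and 953 CPM against 2205, 516, 761 and 581 CPM, with corn oil replicate 1 highest in both groups, which overlapped. Tfap2c was at 59.0, 33.3, 65.5 and 28.7 CPM against 52.8, 38.5, 54.7 and 35.3 CPM, and its log2 difference of 0.14 ± 0.21 (SE) did not pass (adjusted p of 0.708, edgeR). No gene of the Notch pathway list passed of 6 tested with edgeR, 2 had an unadjusted p under 0.05, and the DESeq2 Wald test passed 0. With Plet1 left out of the score, however, 2 of 6 rose and the list's median was 0.65. The medians were 0.21 for ETS factors, −0.14 for epithelial factors and −0.02 for Notch.

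Genes that mark progenitors and alveolar fate moved in both directions. Of 13 progenitor genes, Mfge8 (0.87), Tspan8 (0.99), Sox10, Aldh1a3 (0.51) and Folr1 (0.61) rose, and Cd14 (−1.10), Slpi (−0.57) and Kit, a receptor used to sort progenitors with a mean under 20 CPM here, fell. Without corn oil replicate 1, 3 rose and 2 fell. Aldh1a3 turned to −0.77 when Plet1 was left out of the score. Prolactin and alveolar genes gave 2 higher (13.3%) and 3 lower (20%) of 15, beside 6.48% and 9.08% over all genes tested. Cish, a feedback inhibitor induced by prolactin through Stat5, was at 38.4, 27.7, 50.6 and 52.6 CPM against 20.2, 16.6, 18.2 and 20.6 CPM and rose by 1.29 ± 0.25 (SE), and Xdh, a milk fat globule enzyme, by 0.91, while Id2 (−0.74), Igf1r (−0.95) and the scarce Cited4 fell. Of 10 milk protein genes, the membrane proteins Btn1a1 (1.12), Muc1 (0.79) and Muc15 (0.48) rose. The list's counts and median depended on which libraries were kept. Without corn oil replicate 1, 2 rose and 3 fell, with a median of −0.38, while without corn oil replicate 2, 4 rose and 0 fell, with a median of 0.57, and without 4OHT replicate 2, 4 rose and 1 fell, with a median of 0.47. The medians of the progenitor, prolactin and milk lists were 0.13, −0.14 and 0.02.

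Genes with functions related to those of Car2 and Plet1 were read next. Of 21 genes listed for carbonic anhydrases, their relatives, and ion or water transport and its regulation, 7 rose and 0 fell. The higher ones were Car8, the potassium channel Kcnn4 (1.40), the sodium channel subunit Scnn1b (1.47), the proton pump subunit Atp6v1b1 (1.05), Slc9a3r1 (0.82), Fxyd3 (0.49) and the scarce water channel Aqp3. Of 27 surface proteins, 11 rose, among them Epcam (0.76, but −0.26 with Plet1 left out of the score), Cd82 (0.84) and Cd24a (0.56), and 7 fell, among them Ly6a, Cd47 (−1.19) and the tissue factor gene F3 (−0.85). Plaur, Cd63, Cd9 and Cd44 also rose, and their differences were below 0 with Plet1 left out of the score, where 7 of the list rose and 13 fell. Of 16 tight junction genes, 1 rose (6.25%) and 4 fell (25%), beside 6.48% and 9.08% over all genes tested. The higher one was Cldn4 (0.61, but −0.13 with Plet1 left out of the score). The lower ones were Cldn3 (−0.65), F11r (−0.77), Tjp1 (−1.26) and Ocln (−0.78). Of 5 keratins outside the rule, Krt7 fell (−0.52), but no keratin passed without corn oil replicate 1, without 4OHT replicate 1, with the DESeq2 Wald test or with the top 10% taken within each library; 2 had an unadjusted p under 0.05 with edgeR. The median log2 difference was 0.29 for transport, 0.14 for surface proteins, −0.08 for tight junctions and −0.29 for keratins, beside −0.08 over all genes.

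Interferon response genes were lower almost throughout. Of 15 tested, 14 fell and 0 rose, with a median log2 difference of −2.25, and leaving out any 1 library left 12 to 14 lower. Among the 14, Ifit1 was higher in score-high cells of 4OHT replicate 2, at 58.9 against 38.7 CPM. Rsad2, an antiviral enzyme, was at 1.37, 11.1, 0 and 1.59 CPM in score-high and 37.7, 214, 122 and 20.9 CPM in other progenitors. Its score-high sums held 4 UMIs in 3 cells, and in 4OHT replicate 1 a count of 0 allows up to 8.93 CPM. The log2 difference was −4.82 ± 0.41 (SE), with an adjusted p of 1.13e-14 (edgeR). Isg15, a ubiquitin-like interferon product, was at 60.3, 33.3, 20.8 and 14.3 CPM against 170.0, 323, 228 and 94.2 CPM, and Irf7, the factor that amplifies interferon induction, at 16.5, 11.1, 5.95 and 4.78 CPM against 92.8, 96.4, 58.9 and 36.6 CPM. None of the 4 score-high sums of these 3 genes reached any sum of the others. Ifi44 (−3.68), Oasl2 (−3.39), Gbp7 (−3.28), Ifit3 (−3.17), Gbp2 (−2.60) and Bst2 (−2.25) fell too, of which Ifi44, Gbp7 and Gbp2 were not on the list. Ccl5, a chemokine also induced by interferon, was at 2.74, 16.6, 5.95 and 1.59 CPM against 115, 134, 79.8 and 116 CPM, a log2 difference of −4.53 ± 0.33 (SE).

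Ly6a, which encodes the surface marker Sca-1, was at 57.6, 66.6, 11.9 and 31.9 CPM in score-high and 623, 241, 333 and 173 CPM in other progenitors, a log2 difference of −2.97 ± 0.21 (SE). It is carried by hormone-sensing luminal cells too, and it is counted in the marker list of that class. Hmox1, heme oxygenase 1, an enzyme induced by oxidative stress, was at 65.8, 122, 313 and 147 CPM against 1195, 1784, 1377 and 762 CPM. Its log2 difference was −2.94 ± 0.18 (SE), with an adjusted p of 7.22e-20 (edgeR), and the groups did not overlap. The glutathione and quinone genes Gclm (−2.03) and Nqo1 (−2.16), and the scarcer Gclc and Slc7a11, fell as well, while the heat shock genes Hspa1a (0.80) and Hspa1b (0.95) rose. Of 18 heat shock and antioxidant genes, 2 rose and 7 fell, with a median of −0.11, against 6 and 3 with the top 10% taken within each library. With Plet1 left out of the score 8 rose and 6 fell, with a median of 0.35. Bnip3, a mitochondrial protein induced in low oxygen, was at 20.6, 27.7, 41.7 and 12.7 CPM against 103, 211, 179.8 and 162 CPM, a log2 difference of −2.59 ± 0.22 (SE). The remaining 2 genes of the 14 lowest, Wfdc12 (−2.94) and Wfdc17 (−2.74), had 15 score-high UMIs each, in 5 and 2 cells, and these and Gbp2 overlapped between the groups.

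Secreted defence proteins gave 9 lower and 0 higher of 18, with a median of −0.96. Chil1, a chitinase-like protein, was at 91.9, 117, 56.6 and 161 CPM against 717, 296, 303 and 201 CPM, without overlap, and fell by 1.63 on the log2 scale. Clu (−0.70), C3 (−1.20) and Slpi fell as well, although Clu was near level in 4OHT replicate 2, at 548 against 555 CPM. Tspo (−1.28) also fell, and it is on the list and in its counts but does not encode a secreted protein. Spp1, osteopontin, was at 5115, 344, 631 and 3303 CPM against 5239.9, 3807, 2676 and 3386 CPM, lower in corn oil replicate 2 and 4OHT replicate 1 and near level in the other two libraries. Lipid synthesis genes gave 3 lower of 16, with Fabp5 (−0.59) among them, but 1 without corn oil replicate 1 or without 4OHT replicate 1, and with the DESeq2 Wald test 0, where 2 had an unadjusted p under 0.05. EGF receptor family genes gave 1 lower of 9 (11.1%, beside 9.08% over all genes tested), and 2 without corn oil replicate 2. Proliferation genes gave 3 lower of 10, with Hmgb2 at −0.87. None of these 3 lists had a higher gene with all libraries. Without corn oil replicate 2, 1 lipid gene rose, and with Plet1 left out of the score 3 proliferation genes rose. The medians of the 3 lists were −0.15, −0.46 and −0.77.

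The levels were also read over the whole range of the score. When all progenitors were ordered by score in 10 equal bins, and CPM averaged over the 4 libraries, the 558 cells with a score of 0 filled bin 1 and part of bin 2. Cells of equal score were placed by library, so bins 1 and 2 are not separated by the score and the values are given from bin 3. Lmna went from 173 in bin 3 to 271 in bin 5, 917 in bin 9 and 2179.5 in bin 10. Ifrd1 went from 634 through 794 and 2241 to 4435 in the same bins. Hmox1 stood at 1674, 1498, 520.4 and 162, and Isg15 at 293, 288, 30.4 and 32.2. In bin 9, next below, which held 1 score-high cell, Lmna, Ifrd1 and Hmox1 lay between bins 5 and 10, while Isg15 was already at the level of bin 10. Elf5 did not follow to the end, with 323, 408 and 347 CPM in bins 8 to 10, where Plet1 went from 1235 to 7332. The smallest group behind any of these values held 41 cells of 1 library, and the bins were formed from the score, so they carry no test.

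**Figure D4:**
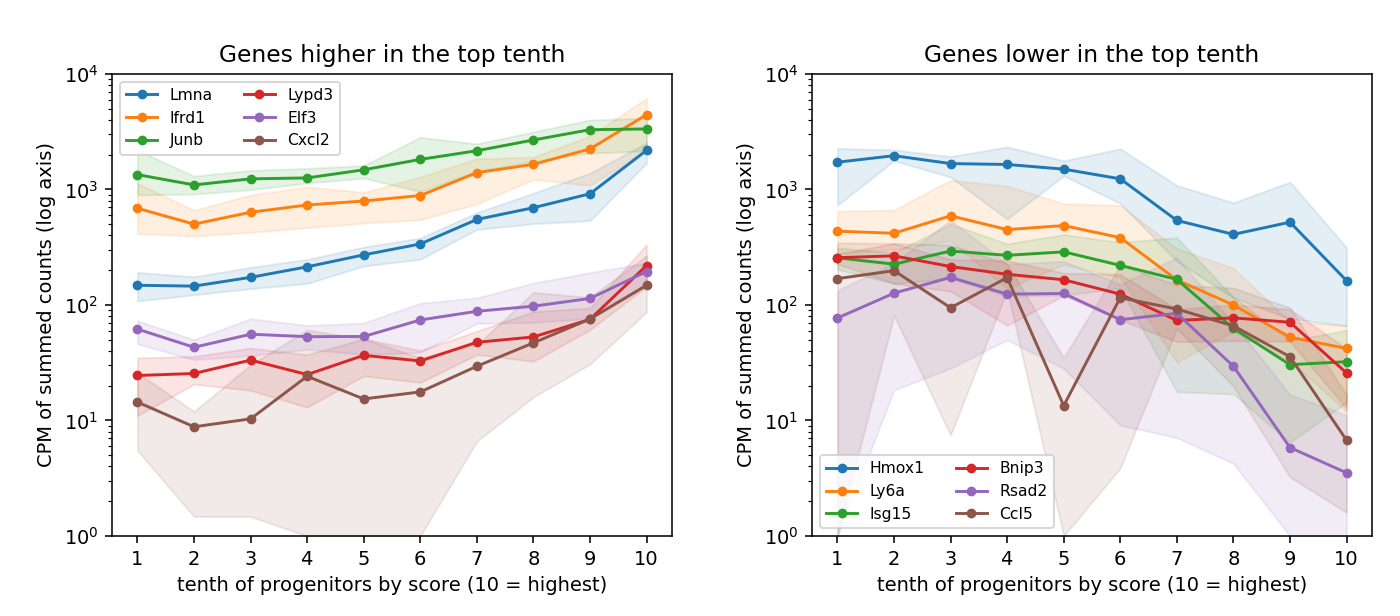
Level of 6 higher and 6 lower genes, as CPM of summed counts on a log axis, over 10 bins of the luminal progenitors by score. Lines are means of the 4 libraries and bands the lowest to highest library, drawn no lower than 1 CPM; Lmna goes from 173 to 2179.5 CPM and Hmox1 from 1674 to 162 CPM between bins 3 and 10, and bins 1 and 2 are divided by library order among cells with a score of 0.

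Markers of other cell types were read beside these results. The summed level of the 12 hormone-sensing markers was 32.7 to 189 CPM in score-high and 298 to 679 CPM in other progenitors, with 2 of 9 tested markers lower, Ly6a and Stc2, and Cd83 and Tnfsf11 at 0 in score-high cells. The 12 basal markers summed to 185 to 247 CPM and 250.3 to 483 CPM, with Cxcl14 (1.05) and Sparc (0.79) higher and Tpm2 (−1.17) and Tagln (−1.07) lower of 11 tested. Endothelial markers summed to 4.11 to 41.4 CPM and 12.5 to 78.5 CPM, with 5 of 8 at 0 in score-high cells. Fibroblast markers summed to 0 to 14.9 CPM and 4.09 to 11 CPM with 4 of 7 at 0, and leukocyte markers to 2.98 to 5.55 CPM and 1.72 to 13 CPM with 7 of 10 at 0, Ptprc included; none of the 4 markers tested in these 3 lists passed in edgeR. Per cell, the median UMIs of the basal gate genes were 1 in both groups and of the hormone-sensing gate genes 0 in both. The luminal keratins of the gate had medians of 73 and 44 UMIs per cell in score-high and other progenitors, given as a description because they took part in the choice. The part of these marker differences in the results above was not tested.

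The share of progenitors that were score-high was 12.3% (129 cells, exact 95% interval 10.4 to 14.5) and 4.39% (41.0 cells, 3.17 to 5.91) in libraries labelled corn oil. The 4OHT-labelled ones had 7.28% (90.0 cells, 5.90 to 8.87) and 15.3% (179 cells, 13.3 to 17.5). These intervals cover counting error only. The 2 treatments overlapped, since the highest and the lowest share of each pair enclosed a value of the other. Averaged by label the share was 8.37% ± 5.62 for corn oil and 11.3% ± 5.70 for 4OHT (SD, n = 2 each), which differ by 2.94 percentage points with an exact two-sided permutation p of 0.667, where 0.33 is the smallest that 2 against 2 can give. It was −5.06 for replicate 1 of each label and 10.9 for replicate 2. Median depth differed between the libraries too, from 3157 to 5271 UMIs per score-high cell, and after thinning to 2000 UMIs, which left out 46 score-high and 170 other cells, the shares were 14.1, 4.30, 7.22 and 13.9%.

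Within score-high progenitors, 4OHT-labelled and corn oil-labelled libraries were compared on the 4 sums, to ask whether these cells changed with treatment. No gene of 3454 tested passed with edgeR (0%), and 138 had an unadjusted p under 0.05; the DESeq2 Wald test passed 1. The count was 32 without 4OHT replicate 2, 18 without corn oil replicate 2, 5 without 4OHT replicate 1 and 1 without corn oil replicate 1, where a lone library is assumed to vary like the others. The 3 lowest p-values belonged to genes that did not pass. Csn1s1, the alpha-casein gene, was at 1562 and 1232 CPM in the corn oil-labelled and 191 and 74.9 CPM in the 4OHT-labelled libraries, with no overlap, a log2 difference of −3.37 ± 0.45 (SE) and an adjusted p of 0.17 (edgeR). Its UMIs came from 74 of 439 score-high cells. Icam1, an adhesion molecule, was at 249.6 and 472 CPM in the corn oil-labelled and 95.3 and 86.0 CPM in the 4OHT-labelled libraries. Its difference was −1.87 ± 0.36 (SE) with an adjusted p of 0.802 (edgeR). Tm4sf1, a tetraspanin-like surface protein, was at 1341 and 1282 CPM in the corn oil-labelled and 3653 and 2619 CPM in the 4OHT-labelled libraries. Its difference was 1.32 ± 0.26 (SE) with an adjusted p of 0.802 (edgeR). In other progenitors, Csn1s1 was at 633 and 1631 CPM with corn oil labels and 142 and 342 CPM with 4OHT labels, again without overlap. There Tm4sf1 was at 773 and 460 against 1177 and 1003 CPM, also without overlap. Icam1 was at 121 and 77.5 against 80.5 and 65.8 CPM, with overlap. With 2 libraries against 2, full separation gives an exact two-sided permutation p of 0.33 at best. The share of all genes without overlap between treatments was not counted, so the lack of overlap adds no support for these genes.

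Tfap2c rested on 43, 6, 22 and 18 UMIs in score-high cells, in the order corn oil 1 and 2 and 4OHT 1 and 2. Its log2 difference between treatments was −0.11 ± 0.51 (SE) with an adjusted p of 0.997 (edgeR), and it turned to 0.59 without corn oil replicate 1 and 0.41 without 4OHT replicate 2. Of the score genes, Plet1 stood at 6953, 6849, 7401 and 8108 CPM in the same order, where both 4OHT-labelled values lay above both corn oil-labelled ones. It chose the cells, so this has no test.

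The difference of the treatment effect between score-high and other progenitors was tested as the interaction of score class and treatment, blocked on library. It passed for 23 of 8950 genes (0.257%) with edgeR, 13 higher and 10 lower, and for 1 with the DESeq2 Wald test. The test set 2 libraries of each label against each other, and edgeR moderated the spread over all genes. A gene's own spread between mice therefore entered these edgeR p-values and standard errors little. For Hmox1 the within-library log2 difference of score-high from other progenitors was −4.04 and −3.97 in the corn oil-labelled and −2.01 and −2.19 in the 4OHT-labelled libraries, and the interaction was 1.92 ± 0.28 (SE) with an adjusted p of 1.17e-07 (edgeR). Of the UMIs behind these values, 62 of 105 score-high Hmox1 UMIs in 4OHT replicate 1 and 30 of 92 in 4OHT replicate 2 came from 1 cell each, against 8 of 48 and 7 of 22 in the corn oil-labelled libraries. Their part in the interaction was not tested. For Cxcl2 the within-library difference was 2.77 and 4.89 in the corn oil-labelled and 1.10 and 2.26 in the 4OHT-labelled libraries, an interaction of −1.93 ± 0.35 (SE) with an adjusted p of 1.32e-04 (edgeR). Corn oil replicate 2 had 45 of 48 Cxcl2 UMIs in 1 cell, and without that library the interaction was −1.02 and did not pass, nor did it without 4OHT replicate 1 (−1.50). It was 1.50 with Plet1 left out of the score and 0.06 for the top 5%. Hspa5, the main chaperone of the endoplasmic reticulum, had differences of 0.49 and 0.15 in the corn oil-labelled and 1.29 and 1.22 in the 4OHT-labelled libraries, and its interaction was 0.93 ± 0.21 (SE); it did not pass without 4OHT replicate 1 (0.84) or without 4OHT replicate 2 (0.95). Plin2, a lipid droplet coat protein, had an interaction of 1.25 ± 0.26 (SE), the ferritin light chain gene Ftl1 0.91 ± 0.20 (SE), Icam1 −1.30 ± 0.31 (SE) and the protein disulfide isomerase Pdia6 1.13 ± 0.29 (SE). Without corn oil replicate 2 these 4 did not pass, at 0.65, 0.48, −0.70 and 0.79 in the same order, and none of the 4 passed without either 1 of the 4OHT-labelled libraries. With 4OHT replicate 2 left out 8 genes passed, and with 4OHT replicate 1 left out 15.

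**Figure D5:**
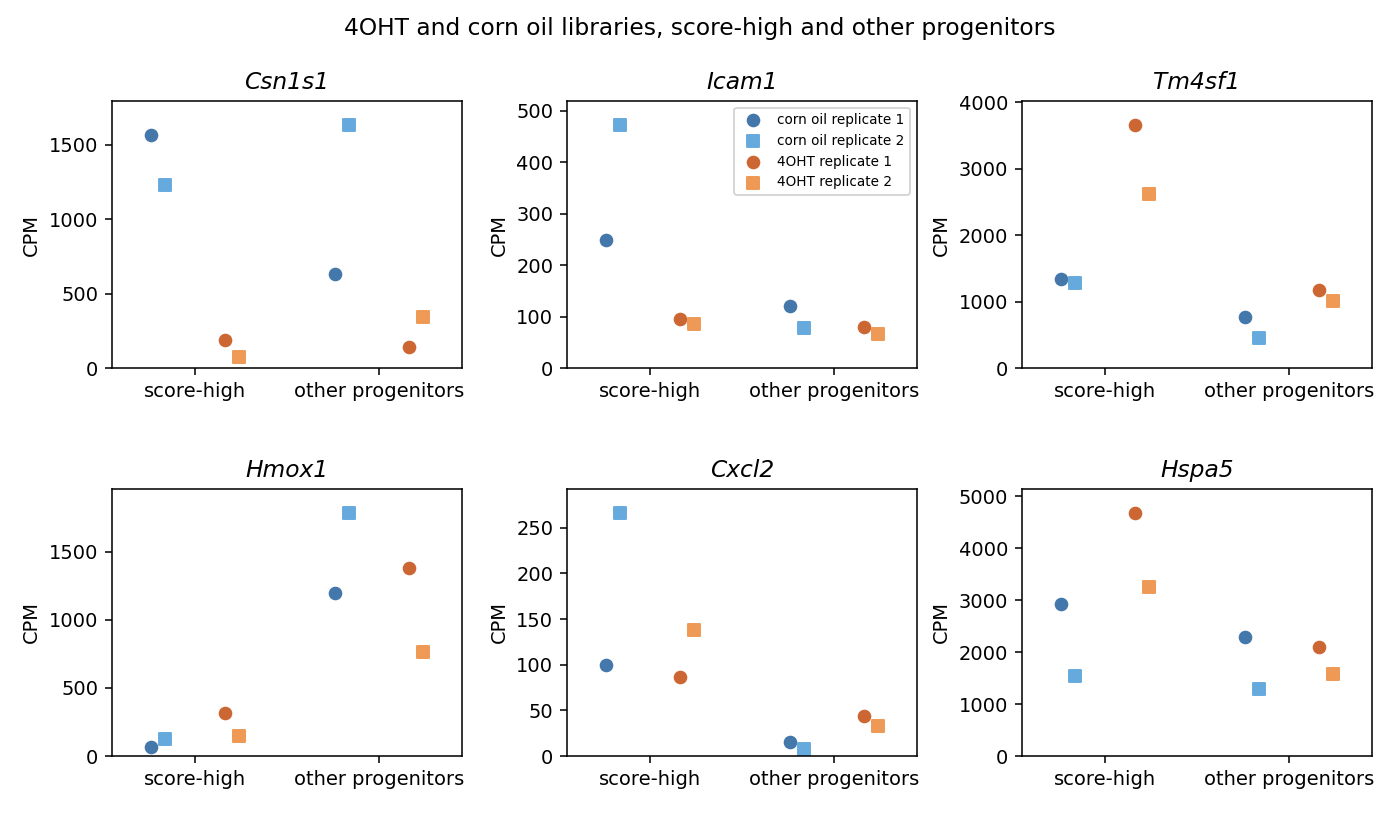
Level of 6 genes in score-high and other progenitors, as CPM of summed counts, with 1 point per library and corn oil-labelled libraries to the left of 4OHT-labelled ones in each pair. The top row holds the 3 genes of smallest p between treatments within score-high cells, none of which passed, and the bottom row 3 genes whose treatment effect differed between the 2 groups of cells, with Hmox1 at 65.8, 122, 313 and 147 CPM in score-high cells.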

How the data were processed

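The deposited matrices give whole UMI counts, not normalized. They come from Cell Ranger 3.0.1 and mm10, per the submitters' processing notes. Intron, strand and cell calling settings are not given in the sources used here. Gene overlaps and near-identical copies could have split counts. Cells were gated and scored here as the report describes, and raw counts were summed per library and group. Sums were tested with edgeR 4.0.16 (TMM factors, filterByExpr, quasi-likelihood F-test, Benjamini-Hochberg adjustment, threshold 0.05), with DESeq2 1.42.0 as an alternative. The edgeR tests were also run on counts simulated from their own fitted model. That run cannot check counts that depart from the model, such as sums resting on 1 cell. The 17 genes of the rule stayed in the fits and out of all calls. Scrublet in scanpy 1.11.5 marked at most 0.5% of each library's cells by its own threshold, which was taken as a failure; as an alternative the cells with the highest scores, 0.8% for every 1000 cells in the matrix, were left out. The named genes were the 14 largest called differences in each direction averaging 20 CPM or more with the same sign in all 4 libraries, called genes of 19 gene lists and 5 marker lists, and, where nothing passed, the 3 smallest p. For calls that involve treatment, both 4OHT-labelled libraries also had to lie on the same side of both corn oil-labelled ones. The members and lists were chosen with earlier results of these data known. The results of 1 gene list and 1 further gene are not reported here. Positions are from GENCODE M21 on GRCm38 and promoters from RefSeq. Alternatives were other cuts and scores, filters, normalization, deeper or thinned cells, a replicate block and leaving out each library; a score of Plet1 alone was added after seeing the data.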

Additional observations from a re-analysis of the deposited data

Results flagged for a closer look

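The treatment effect differed between score-high and other progenitors, by the interaction test in edgeR, for the 11 genes given here. Of the genes that passed, 21 averaged 20 CPM or more. Of these, genes were named only if their within-library differences did not overlap between treatments, so the lack of overlap adds no support. The interaction, on the log2 scale, was 1.92 for Hmox1, −1.93 for Cxcl2, 1.25 for Plin2, 2.29 for Ptx3, 1.97 for Ifi202b and 0.91 for Ftl1. It was 0.93 for Hspa5, 1.13 for Pdia6, −1.30 for Icam1, 0.54 for Malat1 and −3.62 for Gm26772. Of the 73 Gm26772 UMIs in score-high cells, 52 came from 1 cell of corn oil replicate 1. For Cxcl2, 45 of 48 UMIs of corn oil replicate 2 and 20 of 29 of 4OHT replicate 1 came from 1 cell each, and for Hmox1 62 of 105 of 4OHT replicate 1 and 30 of 92 of 4OHT replicate 2 did. In corn oil replicate 2 the score-high cells held 2 Ptx3 UMIs, in 1 cell, and 3 Ifi202b UMIs, in 2 cells. Without corn oil replicate 2 the interaction did not pass for Cxcl2 (−1.02), Plin2 (0.65), Ftl1 (0.48), Icam1 (−0.70) or Pdia6 (0.79), and without corn oil replicate 1 not for Gm26772 (−0.76), Ptx3 (0.43) or Ifi202b (2.24). Of the 11, only Hmox1 passed with each of the 4 libraries left out in turn.

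2 further genes, chosen after their values were seen, passed in the comparison of score-high with other progenitors while each rested mostly on 1 cell of corn oil replicate 1, not necessarily the same one. Parp1 had a log2 difference of 3.02, with 238 of 251 score-high UMIs in 1 cell, and Taf6 one of 1.56, with 87 of 99.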

How the results depend on the processing

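Of the 28 genes with the largest differences between score-high and other progenitors, 28 kept direction and call in 19 of 21 alternatives. The DESeq2 Wald test kept 27, and 24 stayed with Plet1 left out of the score. These 28 were picked as the largest called differences of the same data, which favours such agreement. Of 91 genes named from the lists, 42 held in all 21 alternatives. For 46 the result was weaker in at least 1 alternative, and for 13 it reversed in at least 1. The count of higher genes, 580, became 354 with cells chosen on one part of their UMIs and tested on the other, 923 without Plet1 in the score, 1024 for the top 20% and 288 for the top 5%, and 380 to 584 with 1 library left out. The count of lower genes, 813, became 357 with the DESeq2 Wald test, 519 with split UMIs, 486 among genes of at least 20 CPM, and 468 to 724 with 1 library left out. Between treatments within score-high cells, 1 gene passed with the DESeq2 Wald test, with split UMIs, and without Plet1 or Rhov in the score, 2 for the top 20%, 13 with no filter, and 1 to 32 with 1 library left out. For the difference of effects, 1 passed with the DESeq2 Wald test, among genes of at least 20 CPM and for the top 20%, 9 with split UMIs, 8 without Plet1, 7 for the top 5%, and 8 to 27 with 1 library left out. The share difference ranged from −1.09 to 6.97 percentage points with 1 library left out. With the replicate number as a block, 35 genes passed between treatments and 15 for the difference of effects, and the share difference was 2.94. The labels do not say that a number marks a shared litter or day. Deviations of same-numbered libraries from the mean of their own label correlated at 0.288 across genes. The cause of these changes was not tested.

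Without Plet1 in the score, log2 differences turned for Csf3 (−1.52), Aldh1a3 (−0.77), Cd44 (−0.55), Cd63 (−0.45), Cd9 (−0.26), Cldn4 (−0.13), Cxcl14 (−0.49), Dnajb1 (0.52), Epcam (−0.26), Fos (1.31), Hsph1 (0.22), Maff (−0.0296), Plaur (−1.05) and Sparc (−0.34). Fos turned to 0.019 with the top 10% taken within each library and 0.64 for the top 20%, and for the top 5% Sparc turned to −0.0437 and Tfap2c to −0.19. The interaction turned without Plet1 for Cxcl2 (1.50), Gm26772 (0.80) and Malat1 (−0.079), and for Cxcl2 to 0.0576 for the top 5%. The treatment difference of Tfap2c, which never passed, turned to 0.0735 with the DESeq2 Wald test, 0.0233 with no filter and 0.0764 with the replicate block, and ranged over −0.63 to 0.59 with 1 library left out. Its interaction, 0.00, turned to −0.0165 with DESeq2 size factors, −0.0727 with split UMIs, −0.0951 among genes of at least 20 CPM, −0.0217 with no filter, −0.40 in progenitors with at least 3000 UMIs, −0.0308 after thinning, −0.0633 with Plet1 alone, a score chosen after seeing the data, −0.0714 with a score without Car2, −0.0565 with a score without Elf5, −0.71 with a score without Plet1, −0.11 with a score without Rhov, −0.15 with the top 10% of each library and −0.50 for the top 20%, and ranged over −0.31 to 0.48 with 1 library left out.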

Other observations

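Some further genes outside the lists were chosen after their values were seen, so they stand for no group. Eno1 (−1.30), Pgk1 (−1.24), Pgam1 (−1.31), Pkm (−0.70), Ldha (−0.69) and Hk2 (−1.88), which encode enzymes of glycolysis, were each lower in score-high progenitors on the log2 scale and passed the edgeR test. Pgk1 was at 218, 294, 194 and 293 CPM against 554, 655, 742 and 569 CPM in other progenitors. The glucose transporter gene Slc2a1 (0.33, adjusted p of 0.0887, edgeR) and Vegfa (−0.55, adjusted p of 0.154, edgeR) did not pass. Egln3 (−1.95), Bnip3l (−1.98) and Ero1l (−1.82) passed as lower. The ferritin genes Fth1, at 1759, 1259.8, 1652 and 2038 CPM against 5777, 5434, 5914 and 4291 CPM, and Ftl1, at 1777, 1659, 2251 and 2194 CPM against 4148, 6061, 4094 and 3482 CPM, were lower too, with log2 differences of −1.59 and −1.05.

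Of the higher genes, and again chosen after their values were seen, Crip1, a LIM domain protein, was at 1230.1, 1254, 1197 and 994 CPM against 392, 348, 484 and 482 CPM, Anxa2 (1.32) and its partner S100a10 (1.25) were both higher, and so were Tm4sf1 (1.41), Efhd2 (1.50) and Lgals3 (1.00), each past the threshold in edgeR.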
